A study of Mus musculus with 2 samples.

Results

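The genes described here are the odorant receptors in the middle of the largest receptor cluster of mouse chromosome 2. They are the entries of the deposited table whose locus starts from 87000000 to 88499999 on chromosome 2 (build mm9), except Olfr73. Apart from leaving out Olfr73, which lies inside the window, the rule uses position alone. It found 59 of 1112 olfactory receptor (Olfr) entries. All 59 lie inside 1 cluster of 225 Olfr entries with no gap of 1 Mb or more, so the position behind the name of the group holds. Olfr1506, which lies outside the window, is repeated among the 225. RNA came from the olfactory epithelium, the lining of the nose that detects odours, taken from adult mice of strain C57BL/6. The series has 2 samples in 1 group. Both are titled and genotyped as wild type, but the description of the second reads 3bko, a term the labels do not explain. How many animals entered each sample is not stated in them.

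The table gives a single FPKM per gene (fragments scaled to the length of the gene model and to the total of mapped fragments) and does not say which sample it belongs to. Its 2 sample columns hold the words wt and 3bko in every row, so the file sets a wt sample beside a 3bko sample without a value for each. Each value below is therefore the authors' deposited value, with no SD and no n. Sequencing depth is unknown, and no test was run, so every difference between genes is a description of 1 set of values. The table holds Olfr genes only, so no marker of the tissue could be checked.

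Odorant receptors are G protein-coupled receptors of the cilia of olfactory sensory neurons. A mature neuron is known to express 1 receptor gene from 1 allele, and neighbouring receptor genes are mostly copies of each other that arose by duplication. The level of a receptor in whole tissue joins the number of neurons that express it with the RNA per neuron, which cannot be told apart here. Receptors are grouped below by MOR family, a classification by sequence taken from the RefSeq synonyms.

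The members belong to few families, and some families differ in the form of a short conserved segment. Nearly all odorant receptors carry, at the inner end of the third membrane helix, a segment close to the amino acids MAYDRY, whose arginine takes part in coupling to the G protein. The coding DNA of this segment is shown for the highest member of 5 families, for the eugenol and vanillin receptor Olfr74, and for the members whose segment differs at the arginine. Each stretch runs 5′ to 3′ on the coding strand over 30 bases of the GENCODE M21 coding sequence (GRCm38), and the capitals mark the fifth codon of the segment, where arginine is usual.
Olfr1112 (MOR264, coding bases 373 to 402): atggcttatgacAGAtatgttgctatttgt
Olfr1140 (MOR177, 352 to 381): atggcctttgatCGGtacaaggccatcagc
Olfr1154 (MOR173, 352 to 381): atggcttatgacAGGtacattgcaatttgt
Olfr1168 (MOR174, 346 to 375): atggcctatgacAGGtttgtggctgtttgc
Olfr74 (MOR174, 355 to 384): atggcatatgacCGAtttgtggctatctgt
Olfr1134 (MOR176, 352 to 381): atggcctatgatCGTtatgttgccatctgc
Olfr1133 (MOR176, 355 to 384): atggcctatgatCATtatgttgccatctgc
Olfr1128 (MOR176, 352 to 381): atggcctatgatTGTtatgttgccatctgc
Olfr1141 (MOR177, 352 to 381): atggcctttgatCAGtacaaagccataagc

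Of the 58 members with a GENCODE coding sequence, 17 coded for MAYDRY in full. The forms of the segment were counted among members only, so these counts do not show whether any form is unusual for the repertoire. The third codon was a phenylalanine codon in 12 of the 13 MOR177 members. It was also a phenylalanine codon in Olfr1181 and Olfr1184 of MOR225 and in Olfr1186 of MOR230. The sixth was a phenylalanine codon in all 13 MOR174 members and in Olfr1173, which has no MOR name. Serine stood second in 9 of the 15 MOR264 members, whose FPKM ran from 0.000463 to 5.15 with a median of 0.954. The other 6 MOR264 members, with alanine second, ran from 0.970 to 10.8 with a median of 3.46, so the 2 forms overlap.

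The fifth codon coded for arginine in 55 of the 58 members. In the remaining 3 it coded for cysteine (Olfr1128), histidine (Olfr1133) and glutamine (Olfr1141), and these had an FPKM of 0.000565, 0.253 and 0.0264. Olfr1134, the third MOR176 member, has the arginine codon and stood at 1.10. Other members with the arginine codon were as low, down to 0.000463 for Olfr1145. This feature was looked at after the values were known.

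The members were low for the repertoire, and a few receptors held much of their sum. The median FPKM was 0.674, with quartiles of 0.266 and 1.82 and a range from 0.000463 to 10.8. Over all 1112 entries the median was 1.09. Of the members, 22 (37.3%) reached an FPKM of 1, against 52.5% of all entries. Only 4 (6.78%) reached an FPKM of 5, against 14.3% of all entries. At the low end, 8 members (13.6%) were below 0.1, against 8.63% of all entries, and none was listed at 0. The status NOTEST, which the table gives to low entries, was carried by 17 members (28.8%), against 18.3% of all entries. The members are 5.31% of the entries and held 2.82% of the summed Olfr FPKM.

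Olfr1112 (chromosome 2, 87031846 to 87032802, mm9), a MOR264 receptor, was highest at an FPKM of 10.8 and ranked 53 among the 1112 entries. Olfr1178 (88231406 to 88232377) followed at 7.05, then Olfr1123 (87258207 to 87259178) at 5.21 and Olfr1126 (87297324 to 87298268) at 5.15. Olfr1182 (88286176 to 88289278) came next at 4.41. The first of these alone held 12.9% of the members' summed FPKM, the top 6 held 43.6% and the top 12 held 64.5%. These 5 receptors lie in the opening and closing stretches of the window, as the plot of levels in gene order shows.

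**Figure D1:**
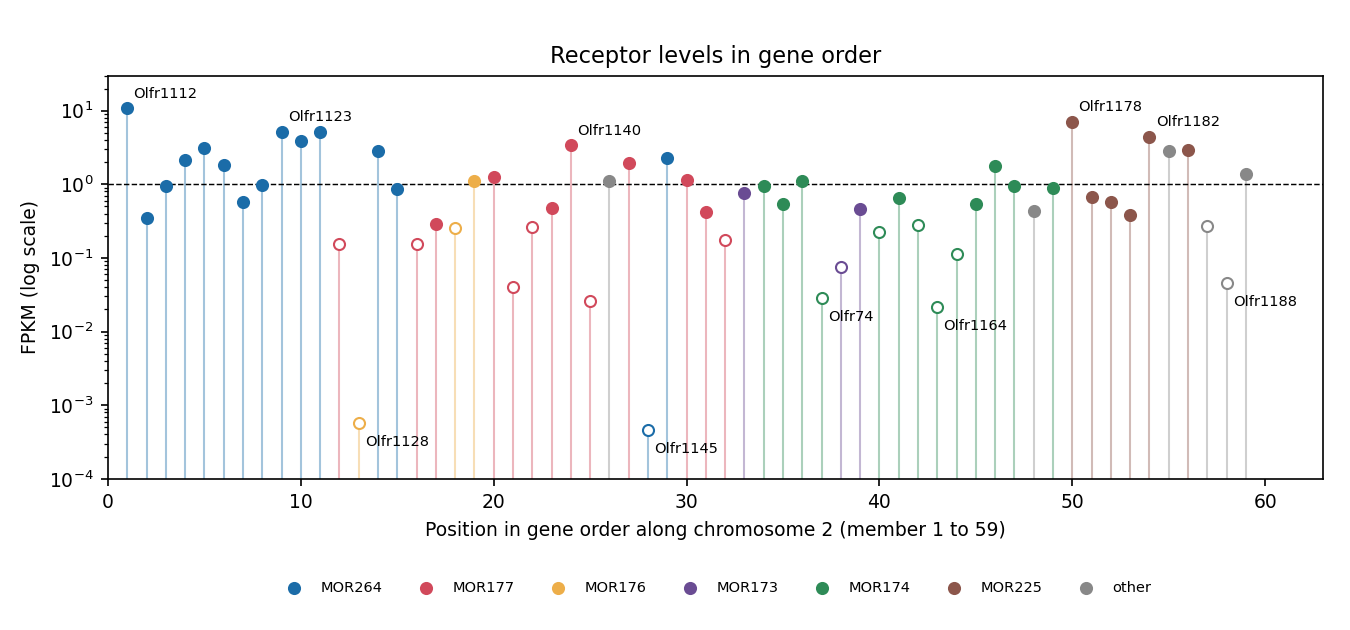
FPKM (log axis) of the 59 members in gene order along chromosome 2, coloured by receptor family, with filled points for status OK, open points for NOTEST and a dashed line at an FPKM of 1. The points above 5 are Olfr1112, Olfr1123 and Olfr1126 near the start and Olfr1178 near the end, and Olfr1128 and Olfr1145 lie below 0.001.

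The window opens with a run of 11 MOR264 genes, all on the plus strand, from Olfr1112 to Olfr1126 (87031846 to 87298268). Their median FPKM was 2.15, 7 of the 11 reached 1, and together they held 41.8% of the members' sum. Olfr1123, Olfr1124 and Olfr1126 are the last 3 of the run and stood at 5.21, 3.83 and 5.15. The low genes of the run were Olfr1113 at 0.352 and Olfr1121 at 0.569. Olfr1116-ps, named as a pseudogene in the table, stood at 2.15. GENCODE M21 types it as protein coding, and RefSeq lists it as Olfr1116.

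The next 21 genes, from Olfr153 to Olfr1153 (87372192 to 87737290), mix 4 more MOR264 genes with MOR177 and MOR176 genes and the MOR181 gene Olfr152. Their median was 0.422, 8 of the 21 reached an FPKM of 1 and 9 carried NOTEST. The highest was Olfr1140 (87586318 to 87587337) at 3.39, and Olfr1129 (87415243 to 87416187) and Olfr1148 (87673198 to 87674142) had 2.83 and 2.28. Olfr1140 lies between Olfr1138 at 0.476 and Olfr1141 at 0.0264, so the highest and the lowest MOR177 members are neighbours. The 2 lowest members of the whole window also lie here. Olfr1145 (87649979 to 87650956) had 0.000463 and Olfr1128 (87384764 to 87385699) had 0.000565.

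The third stretch, 17 genes from Olfr1154 to Olfr1176 (87742899 to 88180671), holds the MOR173 and MOR174 receptors and was low throughout. Only Olfr1168 (88025036 to 88025974) at 1.77 and Olfr1157 at 1.12 reached an FPKM of 1, and the median was 0.536. Olfr74, known as mOR-EV, responds to eugenol and vanillin and lies here (87813864 to 87814820). Its FPKM was 0.0286, rank 1072 of 1112. The related eugenol receptor Olfr73 (mOR-EG) lies among these genes but is not counted with them, and had 2.49. The 2 coding sequences are 77.6% identical, and neither shares a 50-base word with any other Olfr transcript. Olfr1164 (87933012 to 87934123), at 0.0215, was the lowest MOR174 gene.

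The last 10 genes, from Olfr1178 to Olfr1189 (88231406 to 88432883), belong to MOR225, MOR230, MOR237 and MOR238. Their median was 1.02 and 5 of the 10 reached an FPKM of 1. Olfr1178 at 7.05 is followed by Olfr1179 at 0.674, Olfr1180 at 0.575 and Olfr1181 at 0.388, after which Olfr1182, Olfr1183 and Olfr1184 stood at 4.41, 2.84 and 2.97. Olfr1179 to Olfr1181 thus form a short low run and Olfr1182 to Olfr1184 a short higher one, as read from the values, while Olfr1178 stands alone. Olfr1188 (88399608 to 88400575), at 0.0451, was the lowest of these 10.

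Among the 6 families with 3 or more members, MOR264 and MOR225 had the higher medians and the others lay lower. Most of these families are found in this window alone. MOR177 (13 entries), MOR176 (3) and MOR173 (3) have no entry elsewhere in the table, and MOR174 (13) has Olfr73 only. The family medians were 2.15 for the 15 MOR264 members, 1.82 for the 6 MOR225 members, 0.538 for MOR174, 0.467 for MOR173, 0.285 for MOR177 and 0.253 for MOR176. The values within each family overlap those of the others. The order of the lower families rests on the lowest genes: among members at FPKM 0.1 or more the medians were 0.676 for MOR176, 0.649 for MOR174, 0.614 for MOR173 and 0.422 for MOR177. MOR264 alone held about as much of the members' sum as all other families together, MOR225 held 19.3% and MOR177 held 11.7%.

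MOR264 has 2 entries outside the window, both on the X chromosome, namely Olfr1321 at 5.66 and Olfr1322 at 3.85. Both lie inside the range of the MOR264 members. MOR225 has 5 entries in the last part of the cluster, from 3.20 to 4.80 with a median of 3.91, while its 6 members here spread from 0.388 to 7.05. Of those 6, Olfr1179, Olfr1180, Olfr1181 and Olfr1184 lie below all 5, the last of them narrowly at 2.97. Within MOR230, Olfr1183 had 2.84 and Olfr1186 had 0.268, and the 6 entries beyond the window ran from 0.294 to 5.01.

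**Figure D2:**
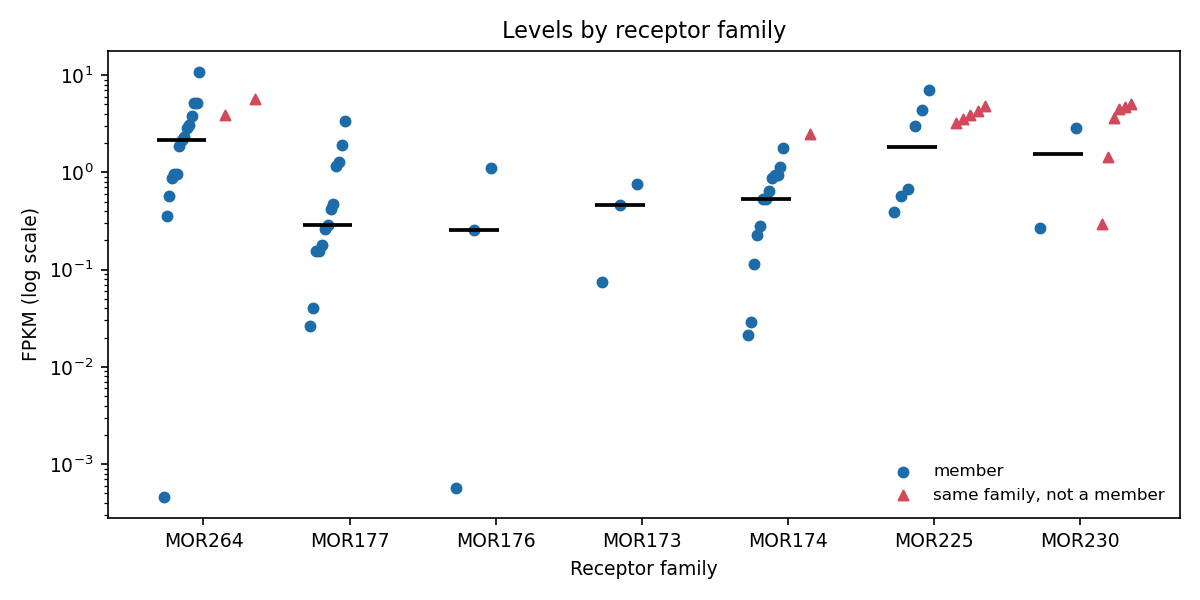
FPKM (log axis) by receptor family, with circles for members, bars for the members' median and triangles for entries of the same family that are not members (for MOR174, Olfr73). MOR264 has the highest median of the members, at 2.15, and MOR177, MOR176 and MOR173 have no triangles.

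Members with similar coding sequences were more than 2-fold apart about as often as members in general. Coding sequences were 69.6% identical at the median between members of 1 family and 57.5% between families. For 55 of 58 members the most similar Olfr gene in the table was another member. At or above 90% identity there were 17 pairs, made of 24 members, and 12 of these pairs (70.6%) were more than 2-fold apart. Over all 1711 pairs of members, 75.2% were. Of the 17 pairs, 7 are adjacent genes and the others lie up to 6 genes apart. Some members are in several pairs, so the pairs are not independent. In the 3 most similar pairs the 30-base coding window with the most differences is shown, with the differing bases in capitals, since it is at such bases that reads of the 2 genes can be separated.
Olfr1129 (coding bases 223 to 252): ctggaaatctgttatgtAtcagtcactctT
Olfr1130 (223 to 252): ctggaaatctgttatgtTtcagtcactctC
Olfr1168 (463 to 492): gTgataatcacatacactctTgtaGagctC
Olfr1173 (463 to 492): gCgataatcacatacactctCgtaCagctG
Olfr1113 (416 to 445): tGgccatctgcaaccctctgcTctatcctG
Olfr1115 (416 to 445): tAgccatctgcaaccctctgcActatcctA

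Olfr1129 and Olfr1130 are 97.9% identical, with 20 differences in all, and had an FPKM of 2.83 and 0.865, a 3.27-fold difference. Olfr1168 and Olfr1173 are 96.9% identical and had 1.77 and 0.441, which are 4.02-fold apart. Olfr1113 and Olfr1115 are 96.7% identical and had 0.352 and 0.954. Other pairs were close in level. Olfr1131 and Olfr153 are 96.5% identical and had 0.156 and 0.154, and Olfr1116-ps and Olfr1118, at 96.6%, had 2.15 and 3.09. The genes of a pair can differ in locus length, and FPKM is scaled to the gene model. The locus spans 945 bp for Olfr1129 and 2123 bp for Olfr1130. It spans 981 bp for Olfr1113 and 1102 bp for Olfr1115, but 939 bp for both Olfr1168 and Olfr1173. The effect of this on the folds was not tested.

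The sources used here do not say how reads that match several genes were counted, so the values of such pairs are uncertain. A 50-base word of a coding sequence was counted as unique where no transcript of another Olfr gene holds it. The unique share was 65.2% for Olfr1130, lower still for Olfr1129, and lowest for Olfr1170 at 47.2%. Over the members, 23 had no shared word and 17 had less than 80% unique words. The median FPKM was 0.865 in these 17 and 0.575 in the 41 at 80% or more. Spearman's rho between FPKM and the unique share was 0.03 over 58 members, as a description of genes that share sequence. Among the highest members the unique share was 100% for Olfr1112, Olfr1178, Olfr1123 and Olfr1124 and 75.1% for Olfr1126.

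**Figure D3:**
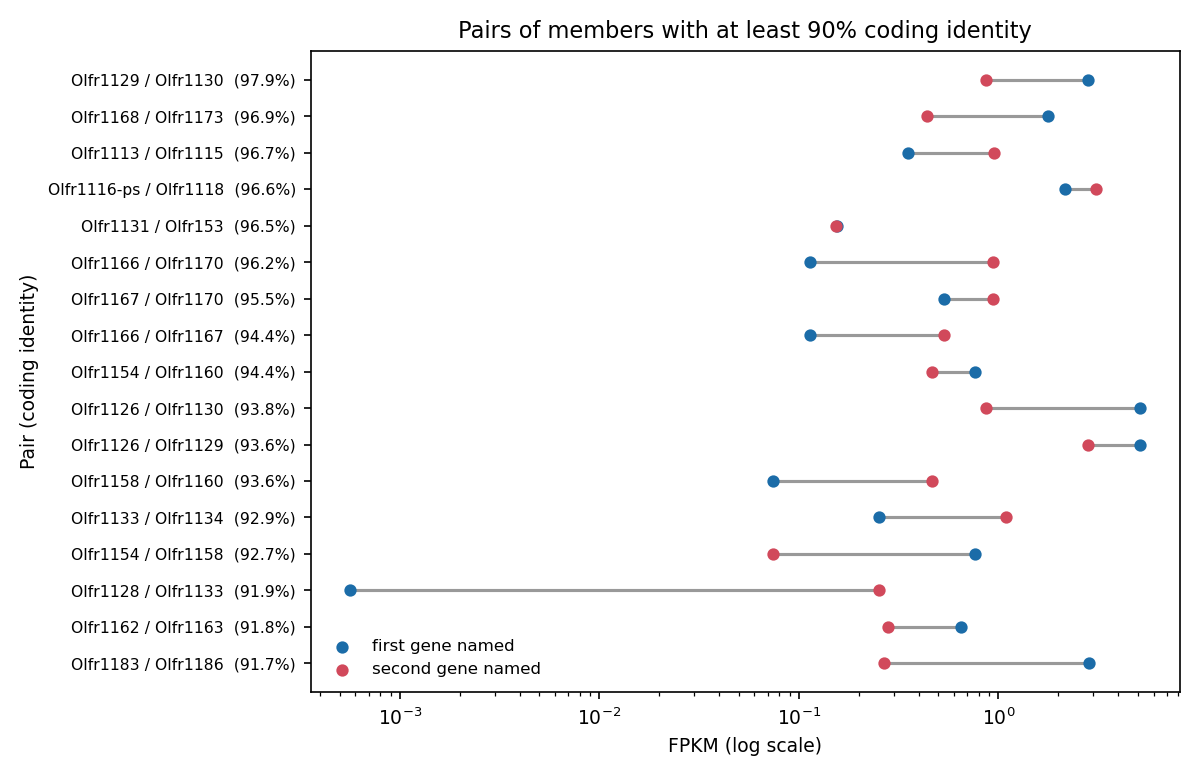
FPKM (log axis) of both genes in each of the 17 pairs with at least 90% coding identity, ordered by identity, with the first gene named in blue and the second in red. Olfr1131 and Olfr153 coincide near 0.15, and Olfr1128 and Olfr1133 are farthest apart.

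Neighbours along the chromosome were only slightly more alike than other members. Over 58 neighbouring pairs, Pearson's r of log2(FPKM + 0.1) was 0.13 and Spearman's rho was 0.14. Neighbours share sequence and each gene enters up to 2 pairs, so these are descriptions. The median absolute difference between neighbours was 1.24 on this log2 scale, against 1.67 over all 1711 pairs of members, and 16 neighbouring pairs were more than 4-fold apart on it. Neighbours of 1 family differed by 1.24 at the median and neighbours of different families by 1.14. The gaps between neighbours ran from 5425 to 73924 bp, with a median of 20383 bp. In all of these values Olfr1161 and Olfr1162 count as neighbours, although Olfr73 lies between them.

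Olfr1112 and Olfr1178 stood above both of their neighbours, while Olfr1123 and Olfr1126 lie on either side of Olfr1124. Olfr1112 stood 30.6-fold above Olfr1113 on 1 side and 8.79-fold above Olfr1111, which lies outside the window, on the other. Olfr1178 was 10.5-fold above Olfr1179, and Olfr1176 on its other side had 0.882. Olfr1126 was 1.34-fold above Olfr1124 and 33.3-fold above Olfr153, where the run of MOR264 genes ends.

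Members with a single annotated exon, or with no annotated untranslated region (UTR), made up the bottom of the range. Most receptor genes have a coding sequence in 1 exon, preceded by a noncoding 5′ exon. In GENCODE M21, 9 members have 1 exon, 40 have 2 and 9 have 3, and 1 (Olfr1182) was not matched. The median FPKM was 0.0286 with 1 exon, 0.945 with 2 and 0.762 with 3. None of the 9 single-exon members reached an FPKM of 1, and 8 carried NOTEST. Their highest was Olfr1173 at 0.441, so they overlap with the lower genes of 2 exons, which ran from 0.0451 to 10.8.

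No UTR is annotated for 5 members. These are Olfr1145 at 0.000463, Olfr1128 at 0.000565, Olfr1141 at 0.0264, Olfr74 at 0.0286 and Olfr1158 at 0.0743. All 5 are among the 8 members below 0.1, and 7 of those 8 have a single exon. The exception is Olfr1188, with 2 exons and 0.0451. An annotation rests on the transcripts that were found, and whether low level and a short gene model share that source was not tested. Exons and UTRs were compared among members only, so these counts do not show whether the pattern is particular to the window.

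Exon number and FPKM gave a Spearman's rho of 0.49 over 58 members. It was 0.17 among members at FPKM 0.1 or more. With the length of the annotated UTR, rho was 0.27 for the 5′ UTR over 53 members and 0.29 for the 3′ UTR over 52. Among members at FPKM 0.1 or more both fell to 0.18. These are relations across genes that share a cluster and families, and none was adjusted for another.

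**Figure D4:**
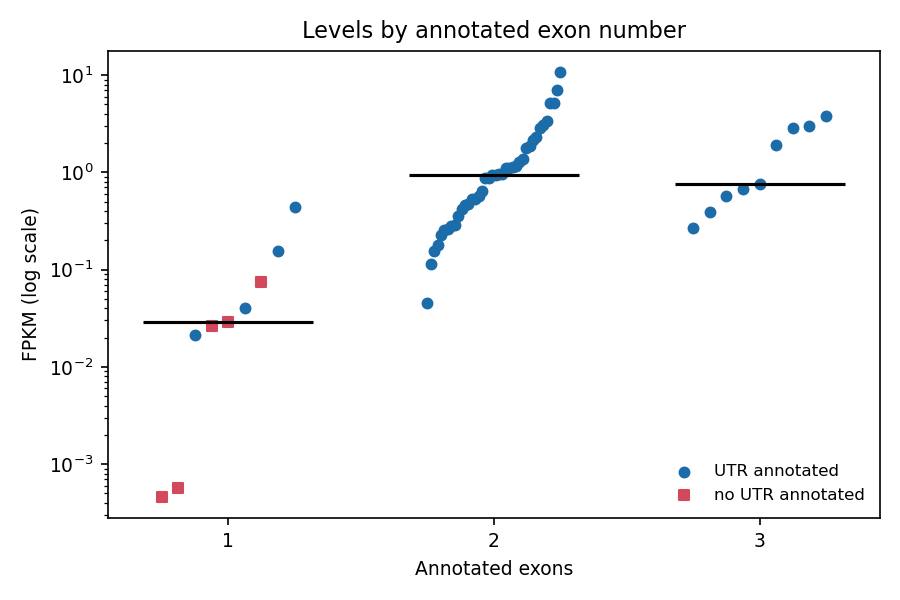
FPKM (log axis) of 58 members by number of annotated exons, each point a gene and each bar the median, with squares for genes with no annotated UTR. All squares have 1 exon and lie below 0.1, and the medians are 0.0286, 0.945 and 0.762.

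RefSeq start windows (250 bases before to 50 after the annotated start, GRCm38.p6) were at hand for 54 members, but for 38 of these the annotated start is the start codon, so that the window need not hold the promoter. The homeodomain-type motif TAATTA, the same on both strands, was in 14 of the 54 windows (25.9%), against 18.8% of 928 windows of Olfr entries. The median FPKM was 0.506 with it and 0.813 without, a difference of -0.59 on the log2(FPKM + 0.1) scale. Among the 16 windows that do not start at the start codon, 4 held the motif and the medians were 0.555 with it and 0.403 without, so the direction turned. The fixed string searched for as the Olf1/EBF site was in none of the 54 windows and in 0.647% of all 928. Forms of the site with another spacing were not searched, so these counts cannot show whether the windows lack Olf1/EBF sites.

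Within the cluster, the median of the members lay slightly below that of the 90 entries before them and well below that of the 75 entries after them. The median was 0.674 for the members, 0.838 for the first part and 3.20 for the last. An FPKM of 1 or more was reached by 37.3% of the members, 41.1% of the first part and 81.3% of the last. For an FPKM of 5 or more the shares were 6.78%, 5.56% and 30.7%, in the same order. Below 0.1 they were 13.6%, 14.4% and 2.67%. By these shares the first part was about as low as the members, so the low level is not particular to them. The difference in median log2(FPKM + 0.1), members minus the other 166 entries of the cluster, was -0.91. With a pseudocount of 1 it was -0.49, and against all other Olfr entries it was -0.64. It was -0.28 against the first part alone and -2.09 against the last part alone.

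The nearest genes step up at the far border of the window, while the near border gives no such step. Just inside the far border lie Olfr1186 at 0.268, Olfr1188 at 0.0451 and Olfr1189 at 1.36, and just outside it Olfr1193 at 6.08, Olfr1195 at 4.68 and Olfr1196 at 3.51. Olfr1197 to Olfr1200, next in order outside, ran from 3.20 to 5.01. Both sides also hold genes of the other kind. A few genes farther in, Olfr1182, Olfr1183 and Olfr1184 stood at 4.41, 2.84 and 2.97. Beyond Olfr1200, Olfr1201, Olfr1202 and Olfr1204 stood at 0.294, 0.859 and 0.454, with Olfr1205 among them at 1.45. At the near border, Olfr1110 at 20.1 and Olfr1111 at 1.22 lie just outside, and Olfr1112 at 10.8 and Olfr1113 at 0.352 just inside.

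**Figure D5:**
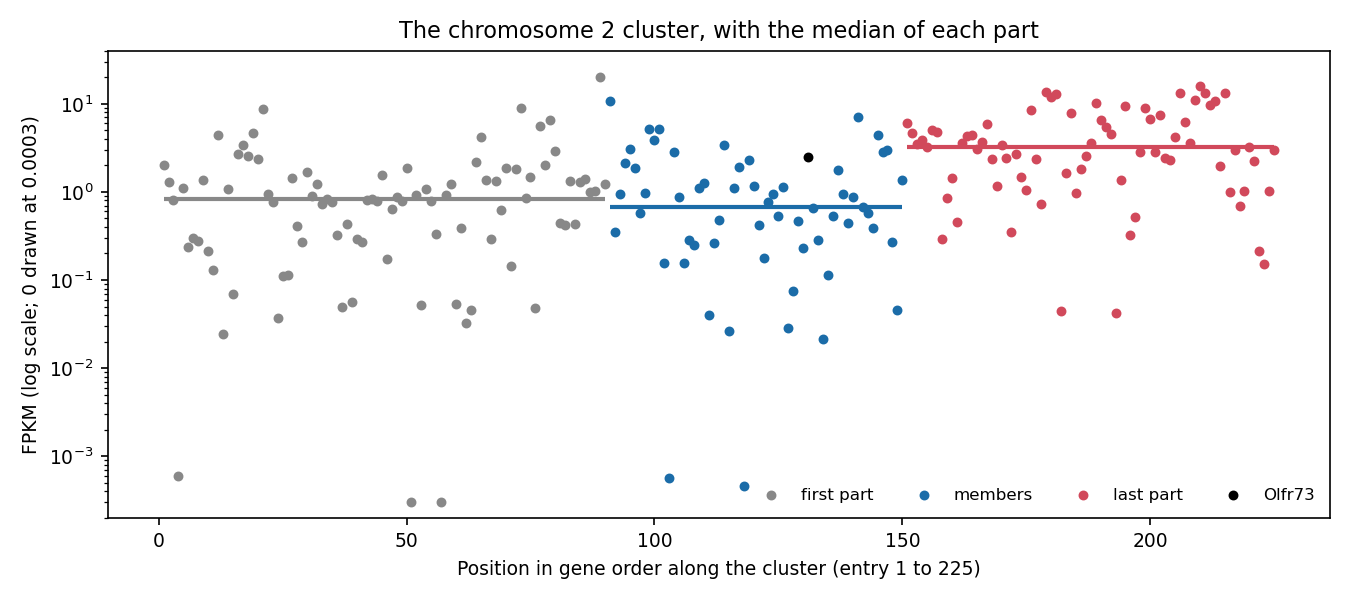
FPKM (log axis, with values of 0 drawn at 0.0003) of all 225 entries of the cluster in gene order, with a bar at the median of the first part (0.838), the members (0.674) and the last part (3.20). The members run from 0.000463 to 10.8 and the first part from 0 to 20.1, and most entries of the last part lie above 1.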

How the data were processed

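RNA-seq libraries (TruSeq, from Trizol-extracted RNA, per the labels' protocols) were made from olfactory epithelium of 2 samples. The authors deposited 1 FPKM per entry. TopHat2, Bowtie2 and Cuffdiff and build mm9 are named in the submitters' processing notes, without versions. Annotation, read length, depth and the handling of shared reads are not stated in the labels or the file. A longer or shorter gene model would change an FPKM.

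Locus starts count from 0 in the table, and 1 was added for printing. By name, 58 members matched RefSeq directly and 1 by an older symbol, and 58 matched GENCODE M21. These references are on GRCm38 and gave names, transcript features and coding sequences, never coordinates. The longest coding transcript of each gene was used. Identity is 1 minus the edit distance over the longer coding sequence. Where a gene has MOR names of 2 families (2 members, Olfr1115 and Olfr1137) the first listed was taken. For 36 members the locus in the table has the coding length, so those values cover no UTR. The pseudocount was 0.1. Summary functions were tested on simulated data.

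Members and lists were chosen with earlier results of these data known. The rule for names covers 33 members: the 12 highest, the 5 lowest, pseudogenes, border genes, family extremes, neighbours of the 5 highest, the 3 most similar pairs and Olfr74. Other members named were chosen after their values were seen. Python 3.11.15 with numpy 2.4.6, scipy 1.17.1 and pandas 2.3.3 was used.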

Additional observations from a re-analysis of the deposited data

How the results depend on the processing

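The median difference between the members and the other entries of the cluster (-0.91) kept its sign and was -0.49 with a pseudocount of 1, -0.996 with 0.01, -0.67 among entries at FPKM 0.1 or more and -0.64 against all other Olfr entries. The number of members at FPKM 1 or more (22) followed its threshold and was 51 at 0.1 and 4 at 5. With Olfr73 added the number at FPKM 1 or more was 23, and the median FPKM was 0.718 in place of 0.674. Against single parts of the cluster, an alternative chosen after seeing the data, the median difference was -0.28 and -2.09. Among members at FPKM 0.1 or more, which drops the 8 lowest, rho with exon number fell from 0.49 to 0.17, rho with 5′ UTR length from 0.27 to 0.18, rho with 3′ UTR length from 0.29 to 0.18, and rho with the unique share rose from 0.03 to 0.15. The MOR176 median moved from 0.253 to 0.676 and the MOR177 median from 0.285 to 0.422. The TAATTA difference (-0.59) turned to 0.43 in windows that do not start at the start codon, also chosen after seeing the data; the cause was not tested. TAATTA reads the same on both strands, so a search of the plus strand alone says nothing about stability. The same holds for members with status OK at FPKM 1 or more, since every NOTEST member lies below 1, and for MOR225 at FPKM 0.1 or more, which loses no member. No paired analysis was possible because there is a single group and a single FPKM for each gene, and values without either replicate were not run for the same reason. Depth is unknown, so the counting error of low values could not be given.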
